A study of Mus musculus with 18 samples.

Results

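The course of adult T cell specification from the early thymic progenitor (ETP) to the DN3 thymocyte was followed by setting 3 adult DN3 arrays against 3 adult ETP arrays, 6 of the 18 arrays of the series, over all 22626 probe sets. The 3 adult DN2 arrays, which lie between both stages, served to place each change at the first step (ETP to DN2) or the second (DN2 to DN3). DN3 cells were lineage negative CD44-CD25+ thymocytes, DN2 cells CD44+CD25+ and ETP CD44+CD25-c-Kit+, all from untreated C57BL/6 mice labelled female and aged 4 to 6 weeks. The remaining 9 arrays hold the same stages of fetal thymi, labelled E14.5 (the study's text gives a later day, so their exact age is in doubt), and entered the estimate of the spread and 1 comparison of the ages. Cells carrying lineage markers such as CD8α, CD3ε, NK1.1, CD11b or TER119 were depleted before the sort, and each adult array received RNA pooled from 4 sorts, amplified over 2 cycles. The labels call the arrays of a group biological replicates and the methods call them technical, so how much of the spread behind each p-value is technical is not known. In DN3 the arrays differed in sex-linked transcripts (below).

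ETP are the most immature cells of the thymus and can still give rise to myeloid, dendritic and natural killer cells. Notch signals from the thymic stroma drive them into the DN2 stage, where CD25 appears and the T cell factor Bcl11b is switched on, and on to DN3, where the antigen receptor β locus is rearranged by the Rag recombinase. A productive β chain pairs with the pre-Tα chain and the CD3 chains to form the pre-T cell receptor, which then signals through kinases and adaptors. Commitment also requires that the transcription factors of stem and progenitor cells are switched off.

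Values below are log2 intensities, obtained by the authors through GCRMA (which corrects for background and sums up the probes of each set), and centred for each probe set on its median over the 18 arrays. A value therefore compares arrays and is no level of the gene, levels of different genes cannot be compared, and a probe set without signal in most arrays sits near 0 there. A probe set was called where the limma test of DN3 minus ETP had an adjusted p (Benjamini-Hochberg over all probe sets) under 0.05 and the means differed at least 1.8-fold, and "rose" and "fell" are used only for such calls. Each difference is followed by its standard error from the fit. Fewer cells expressing a gene and less RNA per cell cannot be told apart in such samples.

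Some arrays stood apart. *Xist*, the RNA coating the X chromosome that females silence, had values of 1.59, -11.28 and -11.34 log2 in DN3 replicates 1, 2 and 3. It lay between -1.45 and 1.41 log2 in the other adult arrays, although all are labelled female. The Y-linked *Uty* stood at -0.82, 1.59 and 1.61 log2 in DN3 replicates 1, 2 and 3. Counts and some single genes are therefore also given without DN3 replicates 2 and 3, where the 1 DN3 array left is assumed to vary like the other groups. A gene named without such a note may still lose its call there, as *Cd86*, *Grap2*, *Itgae*, *Smad4*, *Cdk6*, *Cdkn2d* and *Ccne1* did. DN3 replicate 3 lay apart in many falls: in 64 of the 1177 probe sets that fell it was the least changed DN3 array and at least 3 log2 from the mean of the other DN3 arrays, and in 46 of those 64 it was within 1 log2 of the DN2 mean. The same was seen in 5 of the 1258 probe sets that rose. No pair of adult arrays was identical. In the fit of the 9 adult arrays alone, 88 of the 215 named genes that were called lost their call. Among them were *Cd44*, *Hhex*, *Lyl1*, *Irf8*, *Gata3*, *Notch3* and *Cebpb*, and genes below are named without repeating this.

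The promoters of *Ptcra* (pre-Tα), *Cd3g* and *Cd3d* (CD3 chains) and *Rag1* (recombinase) are shown because these genes of the DN3 machinery rose together. Each runs 5′ to 3′ over 300 bases, with 250 before and 50 after the start of the gene, taken from RefSeq (build GRCm38.p6), and the E-box motifs CAGCTG and CAGGTG (searched on both strands, so that CACCTG counts as CAGGTG) are in capitals. E-boxes are the sites that E proteins such as E2A and HEB bind.
Ptcra, chr17:46763663-46763962, minus strand: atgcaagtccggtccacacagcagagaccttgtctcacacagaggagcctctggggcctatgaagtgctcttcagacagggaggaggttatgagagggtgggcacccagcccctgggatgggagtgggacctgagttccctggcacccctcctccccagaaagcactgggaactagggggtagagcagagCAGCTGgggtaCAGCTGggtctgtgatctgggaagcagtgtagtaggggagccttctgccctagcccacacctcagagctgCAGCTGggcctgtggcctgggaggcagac
Cd3g, chr9:44980382-44980681, minus strand: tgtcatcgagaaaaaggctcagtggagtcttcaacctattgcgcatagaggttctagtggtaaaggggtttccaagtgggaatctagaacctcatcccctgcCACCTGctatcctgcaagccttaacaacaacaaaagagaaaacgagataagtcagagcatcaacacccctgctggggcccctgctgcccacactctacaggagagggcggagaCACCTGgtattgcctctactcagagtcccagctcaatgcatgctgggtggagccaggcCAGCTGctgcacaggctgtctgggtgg
Cd3d, chr9:44981536-44981835, plus strand: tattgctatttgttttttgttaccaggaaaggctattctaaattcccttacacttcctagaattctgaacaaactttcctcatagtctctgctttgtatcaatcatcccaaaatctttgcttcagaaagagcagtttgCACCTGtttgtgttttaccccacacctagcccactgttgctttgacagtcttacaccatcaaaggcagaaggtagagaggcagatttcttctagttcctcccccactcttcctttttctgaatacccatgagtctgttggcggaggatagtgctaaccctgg
Rag1, chr2:101649483-101649782, minus strand: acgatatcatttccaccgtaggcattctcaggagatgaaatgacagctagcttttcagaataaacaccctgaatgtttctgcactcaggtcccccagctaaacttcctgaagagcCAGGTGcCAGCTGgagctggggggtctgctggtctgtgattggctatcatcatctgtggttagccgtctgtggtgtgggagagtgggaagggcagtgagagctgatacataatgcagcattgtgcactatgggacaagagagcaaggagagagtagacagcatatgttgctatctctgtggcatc
The windows of *Cd3g* and *Cd3d* lie back to back, 854 bases apart, on opposite strands. The *Ptcra* window held 3 copies of CAGCTG, the *Cd3g* window 1 CAGCTG and 2 CAGGTG, the *Rag1* window 1 of each and the *Cd3d* window 1 CAGGTG. Either motif was present in 28.2% of the promoters of genes that rose, 32.7% of those of genes that fell, 32.0% of those of all genes measured and 32.9% of all 32851 promoters in the table, in which 1294 of the 1598 genes called over the course were matched. A match is a description of the sequence only.

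From ETP to DN3, 1258 probe sets rose (5.56% of those tested) and 1177 fell (5.2%), 2435 in all (10.8%). Counted by gene, with 1 probe set for each, 843 genes rose (6.8% of 12393) and 755 fell (6.09%), 1598 in all (12.9%). The arrays of both stages did not overlap in 1223 of the rises and 1144 of the falls, against 22.8% of all probe sets. The median rise was 1.52 log2 and the median fall -1.86 log2, with quartiles of 1.15 and 2.27 log2 for rises and -3.08 and -1.27 log2 for falls, while the median over all probe sets was -0.000127 log2. Without DN3 replicates 2 and 3, 796 probe sets rose and 1008 fell, and without DN3 replicate 3 alone 990 rose and 1095 fell.

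Chains of the pre-T cell receptor were the 3 largest rises, and members of its signalling chain rose less. *Cd3g*, the CD3γ chain, stood at 0.76, 0.36 and 0.17 log2 in DN3, against -11.98, -8.58 and -7.52 log2 in ETP, a difference of 9.79 ± 0.77 log2 (adjusted p = 2.1e-06). *Ptcra*, which encodes pre-Tα, had 4.63, 4.05 and 3.19 log2 in DN3 and -6.05, -6.10 and -5.08 log2 in ETP (9.70 ± 0.67 log2, adjusted p = 7.53e-07). *Cd3d*, the CD3δ chain, had 3.32, 3.53 and 2.53 log2 in DN3 and -6.87, -6.26 and -5.60 log2 in ETP (9.37 ± 0.81 log2, adjusted p = 4.71e-06). In these 3 genes the lowest DN3 array stood more than 7 log2 above the highest ETP array. *Cd3e* and *Cd247* (the ζ chain) rose by 5.08 ± 0.45 and 5.47 ± 0.45 log2, so that each of the 5 chains measured rose. Of the proximal kinases and adaptors, *Zap70*, the kinase that docks on phosphorylated CD3 and ζ chains, had 2.63, 3.63 and 2.88 log2 in DN3 and -1.33, -1.18 and -1.20 log2 in ETP (4.28 ± 0.31 log2). *Lat*, the scaffold that Zap70 phosphorylates, rose by 3.62 ± 0.29 log2 and *Trat1*, an adaptor, by 3.57 ± 0.56 log2. *Prkcq*, the protein kinase Cθ, the adaptor *Grap2* and the phosphatase *Ptpn22*, which restrains receptor signalling, rose by between 1.43 and 1.51 log2. Other kinases of the same list went the other way: *Syk*, which shares its substrates with Zap70, fell by 2.79 ± 0.75 log2 (adjusted p = 0.0251), a call lost without ETP replicate 1, and *Fyn* fell by 1.46 ± 0.20 log2. Altogether 11 of the 20 measured genes of this list rose and 2 fell (median 1.46 log2), with 10 to 12 and 1 to 2 under the alternative settings other than the fit of the 6 arrays, where 9 rose and 1 fell.

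**Figure D1:**
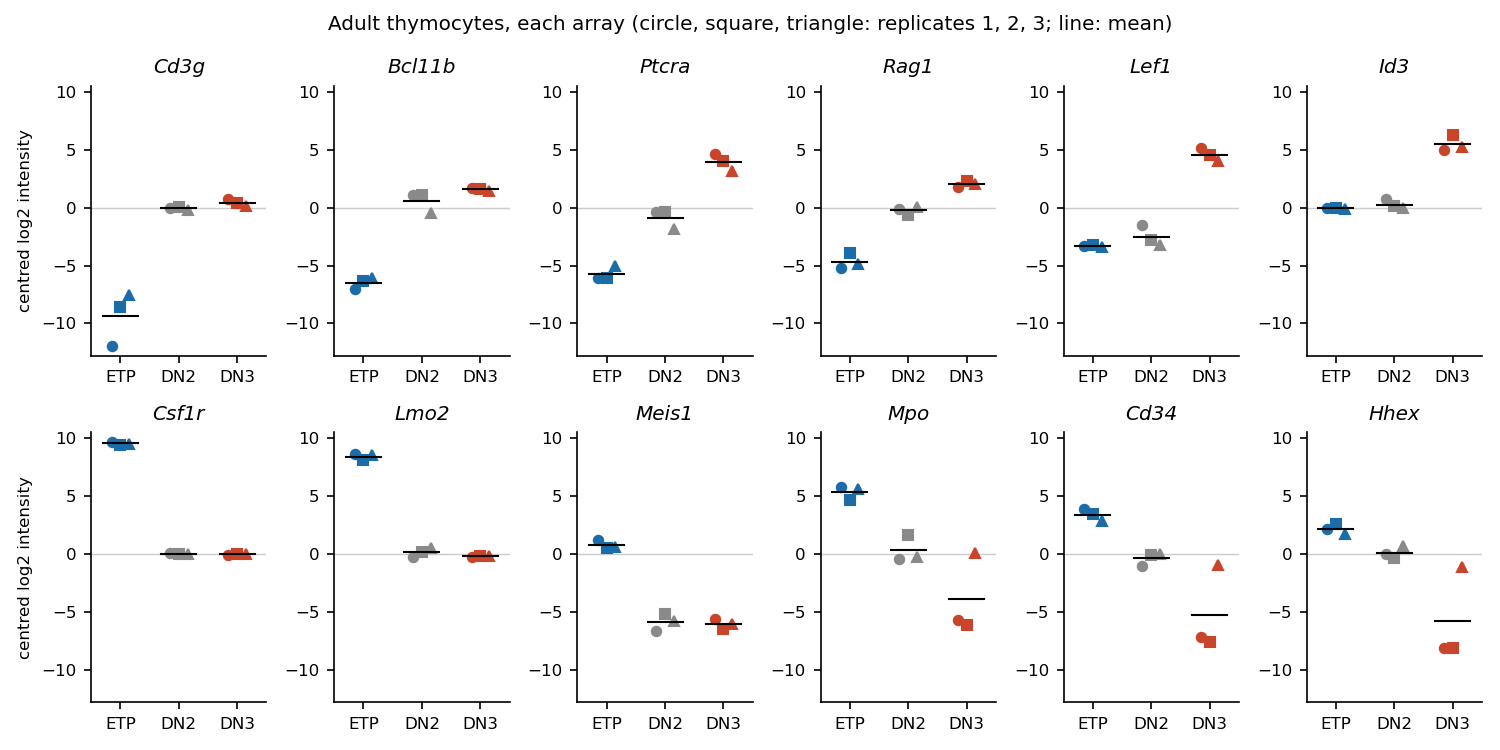
Centred log2 intensity (vertical axis) of 12 genes on each adult ETP, DN2 and DN3 array, with circles, squares and triangles for replicates 1, 2 and 3 and a line at the mean. *Cd3g* and *Bcl11b* reach most of their DN3 value at DN2, *Lef1* and *Id3* rise between DN2 and DN3, *Csf1r*, *Lmo2* and *Meis1* fall to their DN3 value by DN2, and in *Mpo*, *Cd34* and *Hhex* DN3 replicate 3 stands near the DN2 values.

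Both genes of the recombinase rose. *Rag1* had 1.78, 2.33 and 2.06 log2 in DN3 and -5.18, -3.93 and -4.89 log2 in ETP (6.72 ± 0.43 log2, adjusted p = 3.6e-07), and its partner *Rag2* rose by 2.96 ± 0.32 log2. The Ku subunits *Xrcc5* and *Xrcc6* and the ligase cofactor *Xrcc4*, which act in joining the cut ends, rose by 1.18 ± 0.27, 0.94 ± 0.29 and 1.55 ± 0.39 log2, each a call that was lost without DN3 replicates 2 and 3 together (that of *Xrcc4* also without ETP replicate 1 or DN3 replicate 3, and that of *Xrcc6* without any 1 of 7 adult arrays). *Dntt*, the terminal transferase that adds nucleotides at the joints, was already at 6.39, 6.19 and 5.58 log2 in ETP and stood at 6.92, 7.09 and 6.83 log2 in DN3. Its rise of 0.89 ± 0.16 log2 lies just over the 1.8-fold limit, was lost without ETP replicate 3 or DN3 replicate 2, and turned to -0.11 log2 in the mean over its 3 probe sets. In all, 6 of 11 measured genes of V(D)J recombination and end joining rose and none fell, 3 rose without DN3 replicates 2 and 3, and 4 without ETP replicate 1, ETP replicate 3, DN3 replicate 2 or DN3 replicate 3.

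Transcription factors of the T lineage rose and none of the 17 measured fell (9 rose, median 1.32 log2, 6 without DN3 replicates 2 and 3). *Bcl11b*, the zinc finger factor required for commitment, had 1.73, 1.58 and 1.45 log2 in DN3 and -7.06, -6.35 and -6.03 log2 in ETP (8.07 ± 0.49 log2, adjusted p = 2.37e-07). *Lef1*, an HMG box factor of the Wnt pathway, had 5.11, 4.55 and 4.04 log2 in DN3 and -3.29, -3.22 and -3.36 log2 in ETP (7.85 ± 0.59 log2). *Spib*, an Ets factor, rose by 6.01 ± 0.60 log2, *Ets1* by 4.56 ± 0.59 log2 and *Ets2* by 4.00 ± 0.28 log2. Smaller rises were those of *Runx1* (2.60 ± 0.44 log2), *Gata3* (1.92 ± 0.41 log2), *Gfi1* (1.71 ± 0.32 log2) and *Myb* (1.32 ± 0.36 log2). The calls of *Gata3*, *Gfi1* and *Myb* were lost without DN3 replicates 2 and 3 (adjusted p = 0.168 for *Gata3* and 0.0829 for *Gfi1*), that of *Runx1* in the mean over its probe sets, and that of *Myb* also without any of 4 single arrays. Among E proteins and their inhibitors, *Tcf12* (HEB) rose by 4.01 ± 0.30 log2 and *Id3*, an inhibitor induced by receptor signals, had 4.99, 6.24 and 5.20 log2 in DN3 and -0.03, -0.07 and -0.08 log2 in ETP (5.54 ± 0.30 log2, adjusted p = 7.62e-08), so 2 of 6 rose. *Tcf3* (E2A) differed by 2.56 log2 without passing the test (adjusted p = 0.106), as did *Id2* at -0.77 log2 (adjusted p = 0.0745).

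In the Notch pathway 2 of 15 measured genes rose and 2 fell, with a median of -0.01 log2. *Notch3* had 3.08, 4.83 and 0.78 log2 in DN3 and -0.03, -0.08 and -0.12 log2 in ETP (2.97 ± 0.67 log2, adjusted p = 0.00892), with replicate 3 the lowest of the DN3 arrays, and *Dtx1*, a Notch target, rose by 3.11 ± 0.52 log2. *Nrarp*, a target that dampens Notch signals, fell by 2.62 ± 0.66 log2 and *Notch2* by 1.73 ± 0.51 log2, and both calls were lost without DN3 replicate 1 and without DN3 replicate 2. *Notch1* (1.20 log2, adjusted p = 0.21) and its target *Hes1* (1.03 log2, adjusted p = 0.151) did not pass the test.

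The transcription factors of stem and progenitor cells formed the list with the highest share of falls: 15 of 19 measured genes fell and none rose, with a median of -3.29 log2. *Lmo2*, the bridging factor of blood stem cells, stood at -0.25, -0.12 and -0.17 log2 in DN3, against 8.61, 8.09 and 8.52 log2 in ETP (-8.59 ± 0.23 log2, adjusted p = 6.72e-11). *Meis1*, a partner of Hox proteins, had -5.61, -6.50 and -6.06 log2 in DN3 and 1.25, 0.49 and 0.63 log2 in ETP (-6.85 ± 0.32 log2). *Tal1*, a basic helix-loop-helix factor that works with Lmo2, had -2.89, -2.50 and -1.76 log2 in DN3 and 3.22, 3.16 and 3.56 log2 in ETP (-5.70 ± 0.32 log2). For these 3 genes the DN3 arrays stood close together. In others DN3 replicate 3 did not. *Hoxa9* had -7.36, -4.85 and 0.24 log2 in DN3 and 4.03, 4.08 and 3.69 log2 in ETP (-7.92 ± 1.32 log2, adjusted p = 0.00117), and *Hhex*, a homeobox factor of progenitors, had -8.13, -8.07 and -1.07 log2 in DN3 and 2.15, 2.60 and 1.72 log2 in ETP (-7.92 ± 1.38 log2). *Lyl1*, a relative of Tal1, was alike, with -8.90, -8.74 and -1.19 log2 in DN3 and 1.57, 0.07 and 1.19 log2 in ETP. Without DN3 replicate 3 the differences were -10.04 log2 for *Hoxa9*, -10.26 log2 for *Hhex* and -9.77 log2 for *Lyl1*. *Mef2c* (-7.98 ± 1.22 log2), *Bcl11a* (-4.37 ± 0.45 log2), *Nfe2* (-3.84 ± 0.77 log2), *Gfi1b* (-3.29 ± 0.52 log2) and *Mycn* (-2.62 ± 0.39 log2) fell too. *Gata2*, *Erg* and *Hoxb4* differed by -2.17, -1.13 and -1.03 log2, and each of these calls was lost without ETP replicate 2 and without any 1 of the DN3 arrays. The list kept 12 falls without DN3 replicates 2 and 3, and 8 in the fit of the 9 adult arrays alone.

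Many genes of the myeloid lineages fell and none rose. *Csf1r*, the receptor of the macrophage growth factor, was the largest fall of the course, with -0.04, -0.02 and -0.02 log2 in DN3 and 9.70, 9.46 and 9.50 log2 in ETP (-9.58 ± 0.34 log2, adjusted p = 1.45e-09). Its other 2 probe sets fell as well, and the mean over the 3 was -5.48 log2. *Mpo*, the myeloperoxidase of granulocytes, had -5.68, -6.14 and 0.10 log2 in DN3 and 5.78, 4.68 and 5.62 log2 in ETP (-9.27 ± 1.39 log2, adjusted p = 0.000545), and here again DN3 replicate 3 stood apart. Of 28 measured granulocyte and macrophage genes 14 fell and none rose (median -1.43 log2), among them the granule proteases *Ctsg* (-7.48 ± 0.58 log2) and *Prtn3* (-6.88 ± 0.93 log2), *Mpeg1*, a pore protein of macrophages (-7.09 ± 0.48 log2), the protease *Ctss* (-6.86 ± 0.78 log2) and the adaptor *Tyrobp* (-6.62 ± 0.68 log2). Late granulocyte genes such as *Ltf*, *Camp* and *Ngp* and the macrophage genes *Itgam* and *Cybb* were not called, with differences between -0.02 and 0.00 log2. The mean over the list lay between -1.01 and -0.25 log2 in the DN3 arrays and between 1.37 and 2.17 log2 in the ETP arrays. Myeloid transcription factors fell in 6 of 11 cases (median -1.77 log2): *Klf4* (-6.48 ± 0.57 log2), *Irf8* (-4.80 ± 0.89 log2), *Spi1*, which encodes PU.1 (-4.46 ± 0.98 log2), *Zeb2* (-2.57 ± 0.51 log2), *Cebpb* (-2.36 ± 0.46 log2) and *Irf5* (-1.77 ± 0.25 log2). The call of *Spi1* was lost without DN3 replicates 2 and 3 (adjusted p = 0.101).

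Genes of antigen presentation by MHC class II fell by DN2. *H2-Aa*, the α chain of I-A, had -0.15, 0.31 and -0.13 log2 in DN3 and 6.58, 8.51 and 7.52 log2 in ETP (-7.53 ± 0.56 log2), and *H2-Eb1*, the β chain of I-E, had -0.10, -0.03 and -0.05 log2 in DN3 and 6.23, 7.37 and 5.71 log2 in ETP (-6.49 ± 0.28 log2). The invariant chain *Cd74* fell by 5.29 ± 0.54 log2, the loading factors *H2-DMa* and *H2-Oa* by 2.81 ± 0.52 and 1.89 ± 0.31 log2, the integrin *Itgax* (CD11c) by 2.43 ± 0.34 log2 and the costimulator *Cd86* by 1.48 ± 0.33 log2. Each of these falls, 7 among the 13 measured genes of dendritic cells and MHC class II, was also called at the first step, where 3.61% of all genes fell and 3.86% rose. *H2-Ab1* (-1.24 log2, adjusted p = 0.29) and *Ciita*, the activator of class II genes (-0.01 log2), were not. The list mean lay between -0.07 and 0.01 log2 in the DN3 arrays and between 2.00 and 2.33 log2 in the ETP arrays.

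Lists of markers of the remaining cell types had medians between -0.02 and 0.00 log2. Of 15 B lineage genes *Cd72* (-4.17 ± 0.49 log2) and the kinase *Btk* (-5.77 ± 0.94 log2) fell and *Pou2af1*, a coactivator, rose (3.68 ± 0.69 log2, not called without DN3 replicates 2 and 3), whereas the defining genes *Pax5*, *Ebf1* and *Cd79a* differed by 0.03 log2 or less in size. Of 14 natural killer and innate lymphoid genes *Klrd1* or CD94 (-6.19 ± 0.41 log2), *Nkg7* (-2.05 ± 0.38 log2) and the chemokine *Ccl5* (-2.56 ± 0.66 log2) fell, the last lost without ETP replicate 3 or any 1 DN3 array. The granzyme *Gzma* rose, with -0.20, -0.11 and -0.39 log2 in DN3 and -11.29, -7.51 and -7.81 log2 in ETP (8.64 ± 0.69 log2, adjusted p = 2.45e-06). In the list of 16 erythroid, megakaryocyte and mast cell genes *Car2*, a carbonic anhydrase, fell by 9.13 ± 1.19 log2, with -3.92, -3.47 and 0.11 log2 in DN3 and 6.62, 6.69 and 6.80 log2 in ETP, while *Gata1*, *Klf1* and *Hba-a1* were not called. Of 11 genes of mature T cells the costimulatory receptors *Cd28* (7.99 ± 0.59 log2) and *Ctla4* (8.32 ± 0.75 log2) rose and *Icos* fell (-1.22 ± 0.30 log2, lost without ETP replicate 3 or DN3 replicate 3), and *Cd4*, *Cd8a*, *Cd8b1*, *Cd2*, *Ccr7* and *Cd40lg* differed by 0.06 log2 or less in size. Of 14 stroma genes *Epcam* rose (7.71 ± 0.60 log2) and *Pdgfrb* fell (-4.21 ± 0.73 log2), and the epithelial genes *Foxn1*, *Krt5* and *Krt8* were not called. The list means of DN3 and ETP arrays overlapped for the B lineage genes alone among these 5 lists, at -0.48 to 0.24 log2 in DN3 and 0.16 to 0.46 log2 in ETP. The part of residual cells of these types in the results was not tested.

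**Figure D2:**
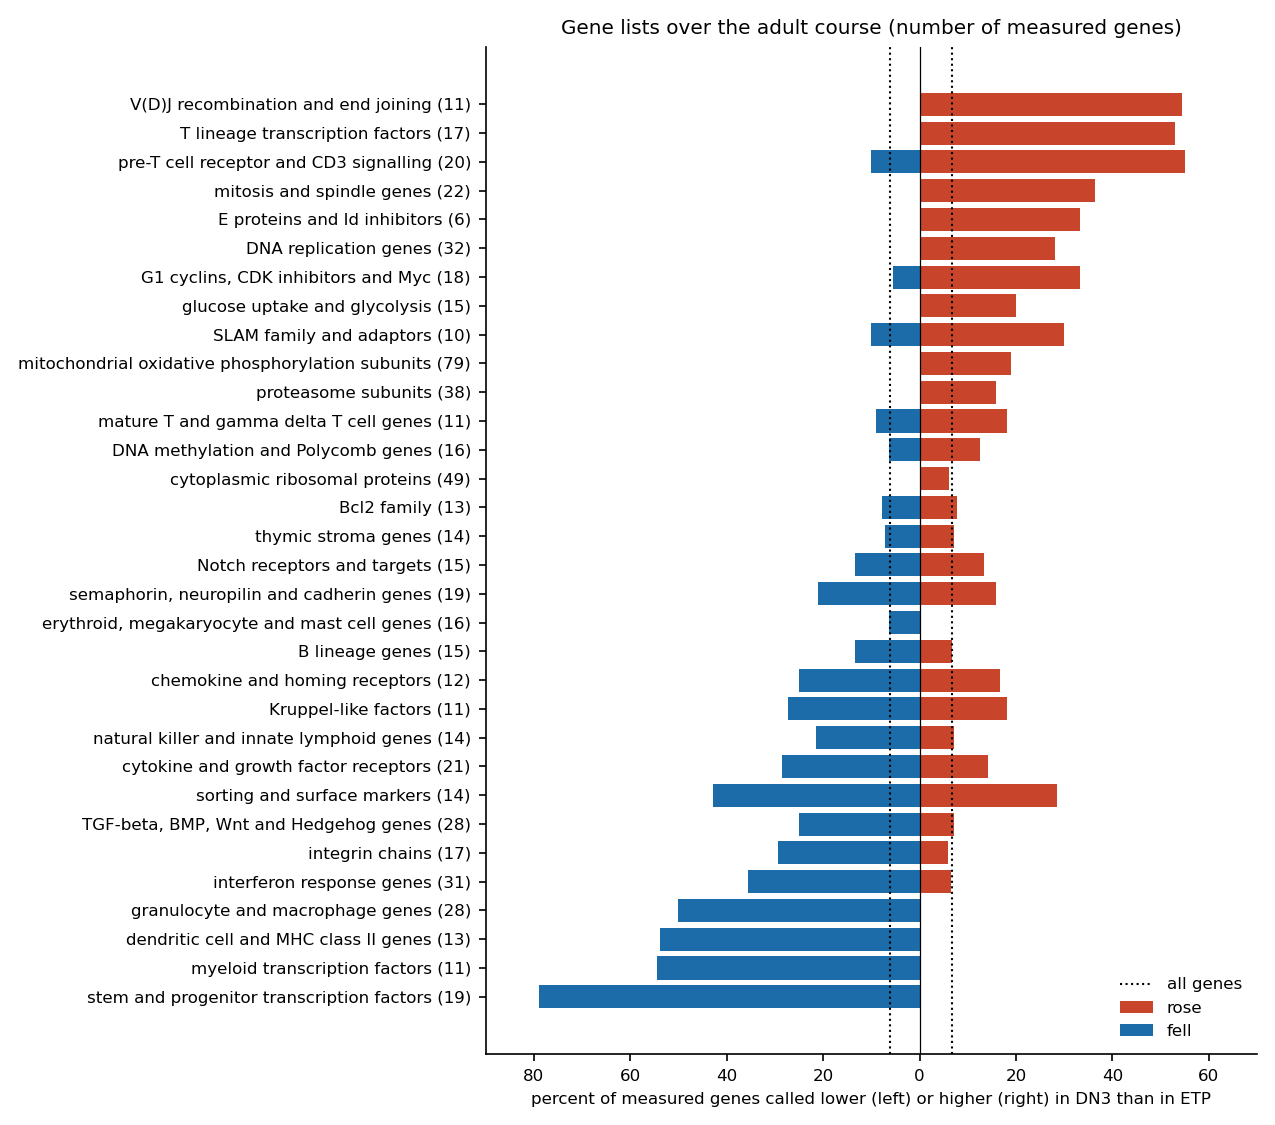
Share of the measured genes of each list (number in brackets) that were called lower in DN3 than in ETP, to the left, or higher, to the right, in percent, with dotted lines at the 6.09% and 6.8% of all genes. V(D)J recombination, T lineage factors and pre-T cell receptor genes lie at the top with 54.5%, 52.9% and 55.0% risen, and stem and progenitor factors at the bottom with 78.9% fallen.

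By their group means the genes of the sorting markers followed the gates, which is no finding of its own. In DN3 replicate 3, however, *Cd44* was far less reduced than in the other DN3 arrays. *Cd44* stood at -7.97, -7.84 and -0.86 log2 in the CD44 negative DN3 cells and at 2.29, 2.32 and 2.34 log2 in ETP (-7.87 ± 1.36 log2, and -10.22 log2 without DN3 replicate 3). *Il2ra* (CD25) rose by 4.17 ± 0.77 log2 and *Kit* fell by 2.39 ± 0.66 log2, and this call was lost without ETP replicate 1, DN3 replicate 1 or DN3 replicate 2. Of markers not used in the gates, *Thy1* (6.98 ± 0.68 log2) and *Cd24a* (1.51 ± 0.19 log2) rose, and *Flt3* (-7.52 ± 0.56 log2), *Cd34* (-8.61 ± 1.24 log2), *Cd93* (-2.26 ± 0.50 log2) and the integrin chain *Itgb7* (-5.19 ± 0.83 log2) fell. *Cd34*, the sialomucin of blood progenitors, had -7.19, -7.58 and -0.90 log2 in DN3 and 3.90, 3.42 and 2.83 log2 in ETP. Of 21 cytokine and growth factor receptors 3 rose and 6 fell: *Il7r*, which sustains early thymocytes, rose by 2.46 ± 0.33 log2 and *Ifngr1* by 1.38 ± 0.20 log2 beside *Il2ra*, while *Il4ra* (-3.65 ± 0.57 log2), *Il18r1* (-2.44 ± 0.32 log2) and *Csf2rb2* (-2.12 ± 0.14 log2) fell beside *Csf1r*, *Flt3* and *Kit*.

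Receptors of migration and adhesion changed in both directions. *Ccr9*, the receptor of the thymic chemokine CCL25, had 4.33, 4.26 and 2.19 log2 in DN3 and 2.13, -0.15 and 1.11 log2 in ETP (2.56 ± 0.60 log2, adjusted p = 0.0119), and its call was lost without ETP replicate 2, DN3 replicate 1 or DN3 replicate 2. *P2ry14*, a receptor of progenitors, fell by 4.19 ± 0.56 log2. *Cxcr4* rose and *Ccr2* and *Cxcr3* fell, each by between 1.03 and 1.65 log2 and each lost without at least 3 single arrays. *Nrp1*, a semaphorin receptor, had 2.72, 3.34 and 2.85 log2 in DN3 and -1.74, -1.53 and -1.62 log2 in ETP (4.60 ± 0.54 log2), and *Sema4a* and *Cdh1* (E-cadherin) rose by 4.73 ± 0.70 and 4.18 ± 0.47 log2. The plexins *Plxnc1* and *Plxnb2* fell by 4.27 ± 0.14 and 3.97 ± 0.49 log2. Of the integrin chains *Itgae* (CD103) rose by 1.75 ± 0.40 log2 and 5 of 17 fell. In the SLAM family the adaptor *Sh2d1a* (SAP), with 3.54, 3.71 and 3.27 log2 in DN3 and -4.89, -4.97 and -4.97 log2 in ETP, rose by 8.45 ± 0.65 log2, together with *Slamf6* (4.97 ± 0.38 log2) and *Sh2d2a* (4.13 ± 0.52 log2), and *Cd244a* fell by 7.70 ± 1.10 log2.

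Of 28 genes of the TGF-β, BMP, Wnt and Hedgehog pathways 2 rose and 7 fell. *Smo*, the transducer of Hedgehog signals, and *Tgfbr1* rose by 1.69 ± 0.28 and 1.26 ± 0.20 log2, and the Wnt receptor *Fzd6* (-4.94 ± 0.88 log2), *Smad7* (-3.10 ± 0.63 log2), *Tcf7l2* (-2.29 ± 0.42 log2), *Acvr1*, *Fzd7*, *Tgfbr2* and *Smad4* fell. With the mean over all probe sets of a gene, 1 rose and 3 fell. Interferon response genes fell in 11 of 31 cases and rose in 2, with a median of -0.68 log2. *Samhd1*, a nucleotide hydrolase, differed by -5.69 ± 0.41 log2, *Ifitm3* by -5.04 ± 0.80 log2, *Oasl2* by -3.45 ± 0.73 log2 and *Oas2* by -2.31 ± 0.17 log2. Of the other falls of this list, those of *Rsad2*, *Irf7*, *Ifit1*, *Mx1* and *Irgm1* were lost when certain single arrays were left out, and those of *Oas1a* and *Gbp3* were not. The list held 6 falls without DN3 replicate 1 or without DN3 replicate 2, and 4 falls and 1 rise in the fit of the 9 adult arrays.

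Further genes belonged to the 15 largest changes in either direction. Beside the genes above, the receptor phosphatase *Ptprf* (8.42 ± 0.54 log2), the interferon-inducible GTPase *Gbp8* (7.89 ± 0.78 log2), *Khdc1a* (7.67 ± 0.51 log2), *Plxdc1* (7.31 ± 0.42 log2) and the γ chain segment *Trgv1* (7.29 ± 0.98 log2) rose. *Plxdc1* had 8.14, 7.38 and 6.06 log2 in DN3 and -0.20, -0.21 and 0.06 log2 in ETP. Among the falls were the adhesion receptor *Adgrl4*, with -0.06, -0.02 and -0.04 log2 in DN3 and 9.12, 8.17 and 8.61 log2 in ETP (-8.67 ± 0.16 log2, adjusted p = 5.9e-13), its relative *Adgrg3* (-7.64 ± 1.40 log2), *Ifitm1* (-7.94 ± 1.29 log2), *Plek* (-7.77 ± 1.05 log2) and *Ffar2*, a receptor of short fatty acids (-7.68 ± 0.68 log2). Probe sets of *Trgv1*, *Ifitm1*, *Gbp8*, *Khdc1a* and the MHC genes may also bind related genes of their families. All 30 stayed called without any single adult array and without DN3 replicates 2 and 3, and 20 of them in the fit of the 6 arrays alone.

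Some cell cycle genes rose from ETP to DN3, and none was called between DN2 and DN3. In DNA replication 9 of 32 measured genes rose from ETP to DN3 and none fell (median 0.60 log2), 12 rose from ETP to DN2, and the difference of DN3 minus DN2 was negative in 24 of the 32. *Rrm2*, a subunit of ribonucleotide reductase, had -1.91, -2.51 and -1.74 log2 in ETP, 0.04, 0.42 and 0.26 log2 in DN2 and -0.63, -0.04 and 0.42 log2 in DN3 (DN3 minus ETP 1.97 ± 0.25 log2), and the thymidine kinase *Tk1* rose by 1.46 ± 0.22 log2. In mitosis 8 of 22 genes rose and none fell (median 0.54 log2), 10 rose from ETP to DN2, and DN3 minus DN2 was negative in 19. *Ccna2*, cyclin A2, rose by 1.94 ± 0.25 log2 and *Aurka*, a spindle kinase, by 1.26 ± 0.35 log2. The means of the DN2 and DN3 arrays overlapped in both lists. The mean over the mitosis list was -0.76, -0.13 and 0.34 log2 in DN3 replicates 1, 2 and 3, between 0.17 and 0.36 log2 in DN2 and between -1.19 and -0.78 log2 in ETP, so DN3 replicate 1 lay at the ETP values and replicate 3 at the DN2 values. Without DN3 replicates 2 and 3, 2 replication genes and 1 mitosis gene rose. Leaving out DN3 replicate 2 or DN3 replicate 3 alone left 5 and 1, DN3 replicate 1 gave 14 and 9, ETP replicate 2 gave 7 and 1, and ETP replicate 3 gave 6 and 3. The fit of the 9 adult arrays called 3 replication genes and 1 mitosis gene, and that of the 6 arrays 3 and 0. By DNA content, which is another measure, the study found the share of adult cells in cycle highest in DN2 and lowest in DN3. The rises are therefore not read as more division in DN3 than in ETP.

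Cyclins of the G1 phase moved in opposite directions. *Ccnd1*, cyclin D1, had -0.20, -0.02 and -0.16 log2 in DN3 and 6.12, 6.44 and 6.54 log2 in ETP (-6.49 ± 0.35 log2, adjusted p = 7.62e-08), whereas *Ccnd3*, cyclin D3, rose by 2.33 ± 0.29 log2 (adjusted p = 0.000131). The inhibitors *Cdkn1a* (3.84 ± 0.41 log2), *Cdkn2c* (2.17 ± 0.41 log2) and *Cdkn2d* (1.38 ± 0.31 log2) and the kinase *Cdk6* (3.12 ± 0.66 log2) rose with *Ccne1*, so that 6 of 18 rose and 1 fell, and 3 rose without DN3 replicates 2 and 3. Of the mitochondrial respiratory chain and ATP synthase 15 of 79 subunits rose and none fell (median 0.46 log2, 6 without DN3 replicates 2 and 3, 9 without DN3 replicate 2), with *Ndufb6* at 1.33 ± 0.18 log2, and of the proteasome 6 of 38 (median 0.53 log2, 3 without both, 2 without DN3 replicate 3, 3 without ETP replicate 2, 10 without ETP replicate 1), with *Psmb3* at 1.96 ± 0.31 log2. In glycolysis 3 of 15 rose, *Ldhb* by 2.72 ± 0.30 log2, *Pfkp* by 2.44 ± 0.38 log2 and *Ldha* by 0.89 ± 0.09 log2, a call lost without ETP replicate 2, and the list held 5 rises without ETP replicate 1 and 2 without ETP replicate 2. The cytoplasmic ribosomal proteins, 3 of 49 risen with a median of 0.02 log2, were close to the background of all genes.

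**Figure D3:**
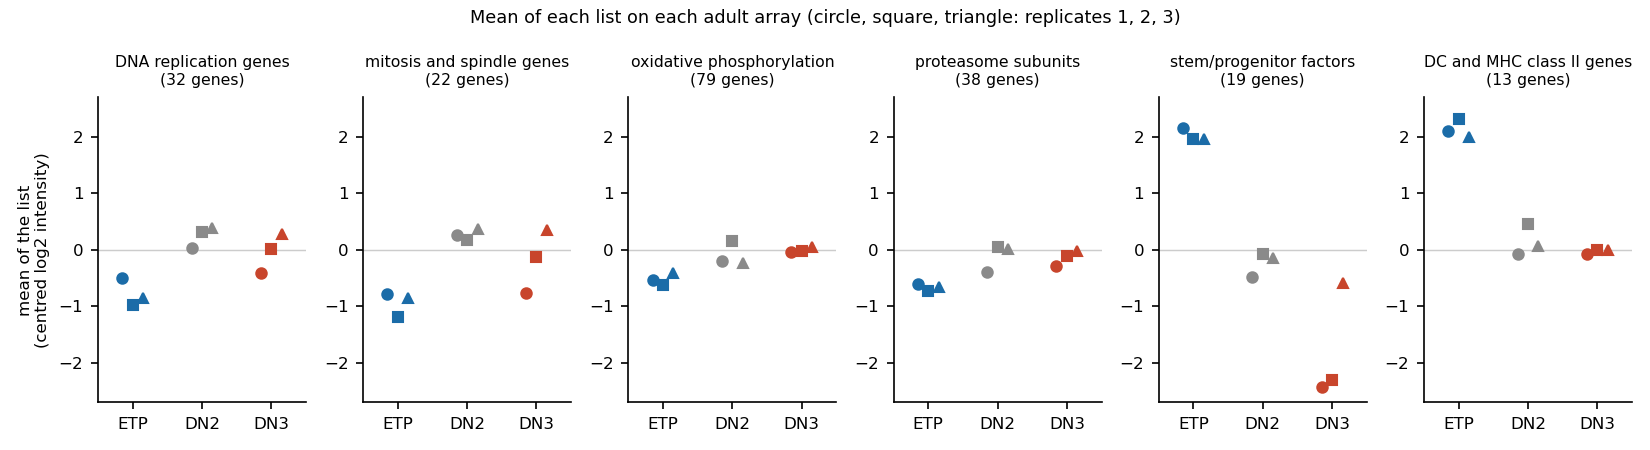
Mean centred log2 intensity of 6 gene lists (vertical axis) on each adult array by stage, with circles, squares and triangles for replicates 1, 2 and 3. Replication and mitosis genes spread widely in DN3, where the arrays overlap those of DN2. The dendritic cell and MHC class II list falls most of the way to its DN3 values by DN2, with DN2 replicate 2 (0.46) above them. In the stem and progenitor list DN3 replicate 3 (-0.59) stands near the DN2 arrays and apart from the other DN3 arrays (-2.43 and -2.30).

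By the group means, ETP to DN2 was the larger step in 874 of the 1258 rises and 872 of the 1177 falls. Few of these passed the test of the midpoint given below. Of the 1258 rises 491 were called at the first step only, 100 at the second only, 25 at both and 640 at neither alone, and 2 had a step in the other direction. Of the 1177 falls 560 were called at the first step only, 36 at the second only, 19 at both and 562 at neither. Over all probe sets 2.96% rose and 3.11% fell at the first step and 0.636% rose and 0.292% fell at the second. In the median rise 67.6% of the difference had been reached at DN2 (quartiles 44.6% and 88.2%) and in the median fall 71.6% (49.5% and 93.3%). Since the ETP arrays enter both the first step and the course, the position of DN2 was tested against the midpoint between ETP and DN3. With 3 arrays each and groups that vary alike, this contrast is uncorrelated with the difference between ETP and DN3. Both tests share the spread of each probe set, so a small spread favours a call in both. The share over all probe sets given next is therefore not free of the choice by the course. DN2 lay past the midpoint in 93 rises and 130 falls and short of it in 29 rises and 1 fall (adjusted p under 0.05), against 1.71% of all probe sets away from it in either direction. By gene, DN2 lay above the midpoint in 0.863% and below it in 1.13% of all genes.

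The count of late falls depended on DN3 replicate 3. Without it 248 falls were called at the second step (55 with it) and 56 were short of the midpoint at DN2 (1 with it), and the late rises numbered 188 at the second step (126 with it) and 57 short of the midpoint (29 with it). With 2 DN3 arrays against 3 ETP arrays the midpoint contrast is not independent of the course and leans towards late steps. The design was the same without DN3 replicate 1 or DN3 replicate 2, where 4 and 1 falls were short of the midpoint. The counts without DN3 replicate 3 therefore show a dependence on that array and no order of the steps. Without DN3 replicates 2 and 3, 320 rises and 324 falls were called at the second step, 301 rises and 511 falls at the first, and 234 rises and 117 falls were short of the midpoint against 59 and 102 past it. In that fit the single DN3 array enters the choice of probe sets, the second step and the midpoint alike, which favours the second step, so no order of the steps is read from it. The number of falls at the second step was also 115 with the replicate number as a block, 6 without DN3 replicate 2, 13 without DN3 replicate 1 and 130 without DN2 replicate 1.

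**Figure D4:**
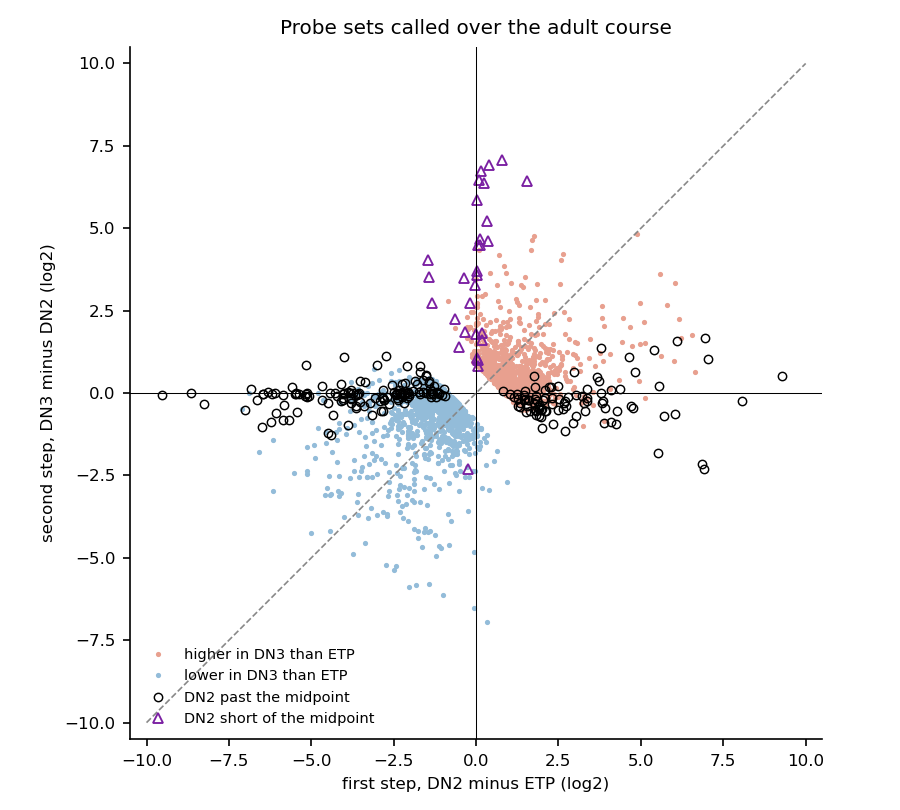
First step (DN2 minus ETP, horizontal axis) against second step (DN3 minus DN2, vertical axis), both in log2, for the 2435 probe sets called over the course, with those higher in DN3 in red and those lower in blue. Circles mark the 93 rises and 130 falls with DN2 past the midpoint, which lie along the horizontal axis, and triangles the 29 rises and 1 fall with DN2 short of it, and the dashed line marks equal steps.

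Early rises included chains of the antigen receptor complex and *Bcl11b*. *Cd3g* stood at -0.01, 0.01 and -0.22 log2 in DN2, a first step of 9.29 log2 and a second of 0.50 log2, and DN2 lay 4.39 log2 above the midpoint (adjusted p = 0.00398). For *Bcl11b*, at 1.07, 1.07 and -0.46 log2 in DN2, the steps were 7.04 and 1.03 log2, with DN2 3.01 log2 above the midpoint (adjusted p = 0.00231). *Lat*, *Il7r*, *Ifngr1*, *Ccnd3*, *Gzma*, *Khdc1a* and *Pou2af1* were past the midpoint at DN2 as well. The probe sets of *Cd247* disagreed: the chosen one was past the midpoint, with steps of 4.82 and 0.65 log2, and another called one had steps of 0.31 and 2.07 log2. In *Il7r*, *Ifngr1*, *Ccnd3* and *Pou2af1* the DN2 mean exceeded the DN3 mean. *Ptcra*, *Zap70* and *Rag1* rose at both steps. The 2 steps of *Ptcra* were 4.88 and 4.81 log2 and those of *Zap70* 1.89 and 2.40 log2, so that DN2 was 0.03 log2 above and 0.25 log2 below the midpoint.

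Late rises included transcription regulators and surface receptors. *Lef1* stood at -1.53, -2.80 and -3.18 log2 in DN2, a first step of 0.78 log2 (adjusted p = 0.623) and a second of 7.07 log2 (adjusted p = 6.77e-05), with DN2 3.14 log2 below the midpoint. *Id3* had 0.71, 0.12 and -0.03 log2 in DN2, with steps of 0.33 and 5.21 log2 (adjusted p = 1.58e-06 for the second). *Cd28*, *Plxdc1*, *Nrp1*, *Dtx1* and *Ccr9* were also short of the midpoint at DN2, and their second steps were 6.45, 6.92, 4.48, 3.49 and 4.03 log2. *Spib* (second step 4.35 log2) and *Ets2* (2.76 log2) were called at the second step without differing from the midpoint. *Ccr9* had a lower mean in DN2 than in ETP, by a first step of -1.47 log2 that did not pass the test (adjusted p = 0.194). In 12 of the 29 rises short of the midpoint the ETP and DN2 arrays all lay within 0.5 log2 of each other, as in 9936 of all 22626 probe sets. For such a probe set a rise that starts after DN2 and an earlier one below what the array resolves cannot be told apart. Among the 1258 rises as a whole 45 were of that kind.

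Early falls held progenitor factors, growth factor receptors and MHC class II genes. *Csf1r* stood at 0.12, -0.01 and -0.01 log2 in DN2, so that the first step was -9.52 log2 and the second -0.06 log2, and *Lmo2*, at -0.28, 0.18 and 0.57 log2 in DN2, fell by 8.25 log2 at the first step. *Meis1* had -6.66, -5.18 and -5.74 log2 in DN2, a first step of -6.65 log2 (adjusted p = 3.22e-08). DN2 was past the midpoint in these genes and in *Flt3*, *Csf2rb2*, *Il18r1*, *Klf4*, *Mpeg1*, *H2-Aa*, *H2-Eb1*, *Cd74*, *Klrd1*, *Ccnd1*, *Plxnc1*, *Adgrl4*, *Tgfbr2*, *Oas2*, *Samhd1* and *Bok*. In 68 of the 130 falls past the midpoint the DN2 and DN3 arrays all lay within 0.5 log2 of each other, as in 10420 of all 22626 probe sets, and for such a probe set an end of the change at DN2 and a signal below what the array resolves cannot be told apart. Among the 1177 falls as a whole 174 were of that kind. Other called probe sets of *Klf4*, *H2-Aa* and *Samhd1* among the early falls, and of *Cd28*, *Nrp1* and *Ccr9* among the late rises, did not pass the midpoint test. Falls called at both steps were those of *Tal1* (-3.16 and -2.54 log2) and *Cd72* (-1.84 and -2.33 log2), and those called at the second step alone included *Btk* (-4.69 log2), *Cd244a* (-5.26 log2), *Nfe2* (-3.58 log2), *Alox5ap* (-2.55 log2) and *Nkg7* (-1.85 log2).

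The 30 largest changes were also set against the same course in fetal thymocytes, by a test of the difference between the ages. Over all probe sets the adult and the fetal course differed in 564 (2.49%). Of the adult rises 332 and of the falls 399 were called the same way in fetal cells, and 3 and 6 the other way, where 2.69% of all probe sets rose and 2.76% fell. Leaving out ETP replicate 1 moved the probe sets higher in the adult course to 410 and leaving out DN3 replicate 2 to 147, against 250 with all arrays. Of the 30 genes 8 differed, and 3.03% of all genes. Since the 30 were chosen for a large adult change and the same adult arrays enter this test, nothing is read from that number or from the direction of the differences. *Gzma* and *Khdc1a* rose by 8.64 and 7.67 log2 in adult cells, against 0.68 and 0.58 log2 in fetal cells, which are no calls, and *Cd3g* by 9.79 log2 against 2.40 log2 (adjusted p = 0.101 in fetal cells). *Bcl11b* differed by 8.07 log2 in the adult course, against 3.77 log2 in the fetal one, and *Plxdc1* by 7.31 log2, against 4.43 log2. *Adgrl4* differed by -8.67 log2 in the adult course, against -0.06 log2 in the fetal one, *Lmo2* by -8.59 log2, against -5.10 log2, and *Csf1r* by -9.58 log2, against -7.59 log2. *Ptcra*, *Cd3d* and *Lef1*, with fetal rises of 8.42, 8.08 and 8.60 log2, were not shown to differ (adjusted p = 0.585, 0.585 and 0.606).

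**Figure D5:**
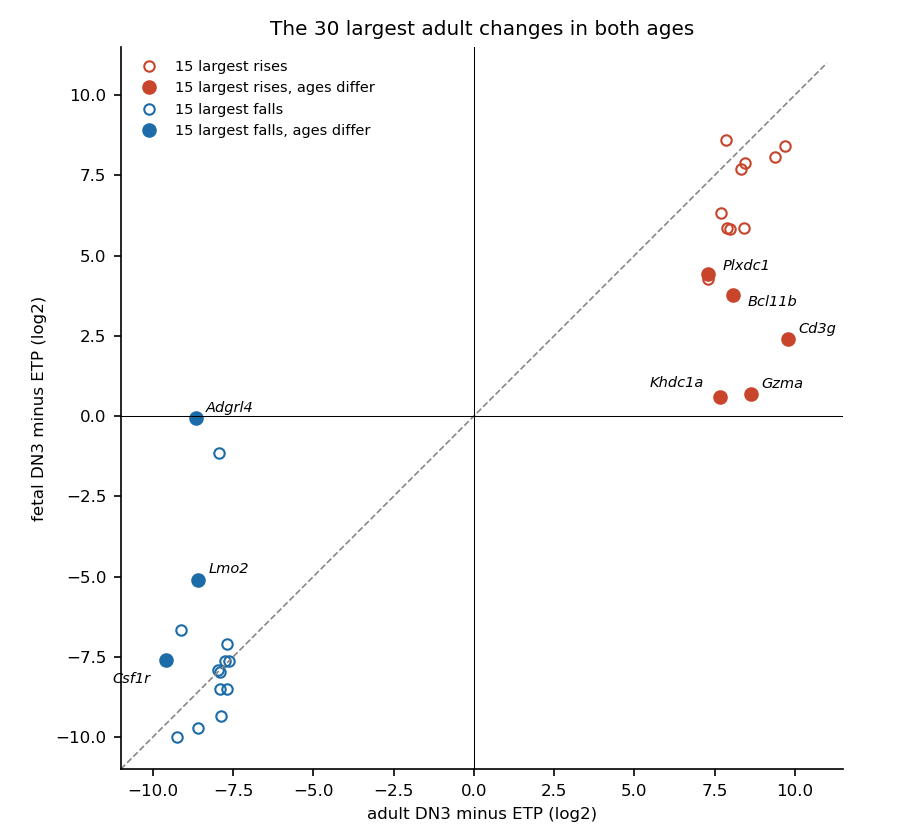
DN3 minus ETP in adult cells (horizontal axis) against the same difference in fetal cells (vertical axis), in log2, for the 15 largest adult rises and the 15 largest adult falls, with filled points for the 8 genes whose course differed between the ages and a dashed line of equality. *Gzma*, *Khdc1a* and *Adgrl4* lie near 0 in fetal cells.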

How the data were processed

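RNA of sorted thymocytes was hybridised to 18 Affymetrix mouse expression arrays, 3 for each of 6 groups. The deposited values are log2 intensities that the authors summarised with GCRMA and centred on the median of each of the 22626 probe sets (largest median 5.0e-07 in size), so they hold no levels, and neither signal over background nor a filter on low values could be had. All columns were mapped to samples.

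A model of 6 group means over the 18 arrays was fitted with limma 3.58.1 in R 4.3.3. DN3 minus ETP, both steps, DN2 against the midpoint, and adult minus fetal course were tested, adjusted by Benjamini-Hochberg over all probe sets (threshold 0.05, at least 1.8-fold, except the midpoint with no fold limit). A gene was represented by 1 probe set, not marked for cross-hybridization where possible, then that with the largest SD. This choice favours large changes, and a size given for a gene is that of its chosen probe set. Of the 215 named genes that were called, 98 had several probe sets. Another one was called the same way in 46 of these and the opposite way in 0. Averaging a gene's probe sets instead ended 32 of the 215 calls. 20380 probe sets had 1 gene, 691 several and 1555 none, and 12393 genes were measured. Named are the genes of the lists and the 15 largest called rises and falls without overlap of DN3 and ETP arrays. Members, lists and tests were chosen with earlier results of these data known. The fit was tested on simulated data. Alternatives were the arrays in the fit, fold limits, array centring, array weights (gene by gene, since the REML fit did not converge), robust moderation, the methods' one-way test, a replicate block, a span filter, the mean of all probe sets, and leaving out arrays.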

Additional observations from a re-analysis of the deposited data

Results flagged for a closer look

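The course from ETP to DN3 differed between adult and fetal cells in 564 probe sets by the interaction term of the limma fit, and in 8 of the 30 genes with the largest adult changes. Given as the adult minus the fetal difference, these were 7.39 log2 for *Cd3g* (adjusted p = 0.00189), 7.96 log2 for *Gzma* (adjusted p = 0.000414), 4.30 log2 for *Bcl11b* (adjusted p = 0.0037), 7.09 log2 for *Khdc1a* (adjusted p = 7.24e-05) and 2.88 log2 for *Plxdc1* (adjusted p = 0.0211) among the rises. Among the falls they were -1.99 log2 for *Csf1r* (adjusted p = 0.0487), -8.62 log2 for *Adgrl4* (adjusted p = 2.47e-11) and -3.49 log2 for *Lmo2* (adjusted p = 4.2e-05). These genes were chosen for their adult change with the same arrays, so their number and the direction of the differences are set in part by that choice.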

How the results depend on the processing

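With all 18 arrays 1258 probe sets rose and 1177 fell. With the 9 adult arrays alone 624 rose and 621 fell (rises: 264 at the first step, 21 at the second, 341 at neither, DN2 past the midpoint in 18 and short of it in 7. Falls: 275, 2, 344, 48 and 0), and with the 6 DN3 and ETP arrays 570 and 534. Both fits estimate the spread from fewer arrays and from no fetal ones. Without DN3 replicates 2 and 3, 796 rose (301, 320, 202, 59 and 234), and of the falls 324 were called at the second step, 290 at neither and 117 lay short of the midpoint. Array weights left 1098 rises at neither step, 51 past and 13 short of the midpoint, 371 falls at the first step, 32 at the second and 86 past the midpoint, and the adult course higher in 871 and lower in 593. The methods' one-way test, unadjusted, called 852 rises at the first step, 424 at the second, 373 past and 111 short of the midpoint, 953, 383, 407 and 45 falls, and 1075 and 819 probe sets higher and lower in the adult course. Adjusted, it called 25 falls at the second step. The span filter called 97 falls at the second step with 2 short of the midpoint, and without a fold limit 2 falls were short. Adult groups scattered more than fetal ones. The pooled SD was 0.45 log2 for adult ETP against 0.31 log2 for fetal ETP. For DN2 it was 0.50 against 0.34 log2, and for DN3 0.41 against 0.26 log2. The fit of all 18 arrays shares 1 spread between both ages, so its p-values for adult differences may be too small. The cause of these shifts was not tested.

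Leaving out 1 adult array at a time gave 854 to 1464 rises (418 to 648 at the first step, 63 to 188 at the second, 382 to 752 at neither, 51 to 119 past and 19 to 57 short of the midpoint), 873 to 1210 falls (445 to 586, 6 to 248, 351 to 666, 95 to 179 and 1 to 56), and the adult course higher in 147 to 410 and lower in 255 to 371 probe sets.

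The replicate number did not pair DN3 with ETP arrays, whose deviations at the same number correlated at 0.03, -0.00 and 0.12. Those of DN3 and DN2 arrays correlated at 0.42, 0.19 and 0.12 at the same number and between -0.29 and 0.19 at other numbers. For DN2 and ETP arrays the values were 0.31, -0.42 and -0.02 at the same number and between -0.36 and 0.44 at other numbers. With the number as a replicate block 1307 rose and 1239 fell, 115 falls were called at the second step and 6 were short of the midpoint, and 5 of the 215 called genes of the lists and the largest changes lost their call.

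Of these 215 genes 79 stayed called under all 22 alternatives and 153 without each adult array in turn. With the 9 adult arrays alone 88 lost their call. The sign turned for *Bst2* (-0.13 log2 without ETP replicate 3, highest 1.89 log2 without ETP replicate 1), *Tgfb1* (0.064 log2 without ETP replicate 1, lowest -3.315 log2 without ETP replicate 2), *Uty* and *Xist* (-0.44 and 0.82 log2 without DN3 replicates 2 and 3), and *Dntt* and *Tox* (-0.11 and 0.12 log2 in the mean of all probe sets). Of these *Dntt* alone was called. Low probe sets have no measured level.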
